A study of Saccharomyces cerevisiae with 4 samples.

Results

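The genes described here encode the isozymes of the pentose phosphate pathway in budding yeast, chosen by name as ZWF1, SOL1, SOL2, SOL3, SOL4, GND1, GND2, TKL1, TKL2 and TAL1, 10 of the 5449 yeast genes measured. Each of the 10 had a single probeset on the array, all 10 probesets were above background on all 4 arrays, and none was lost to a filter. The series compared haploid strain BY4741, which carries deletions in HIS3, LEU2, MET17 (MET15) and URA3 in every group, after 1 h with 50 μM CG-1521 (2 cultures) or with vehicle (2 control cultures). All cultures were growing exponentially in YPD, a rich glucose medium, at the time of treatment, and the replicates were independent biological ones per the labels. CG-1521 is described in the series as an inhibitor of histone deacetylases, and RNA of each culture was read on 1 Affymetrix array. The comparison asks how these isozyme transcripts respond to the inhibitor, and whether the stress forms respond differently from the constitutive ones.

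The pentose phosphate pathway branches off glycolysis at glucose 6-phosphate. Its oxidative branch makes NADPH, which feeds biosynthesis and the defence against oxidants, and ends in ribulose 5-phosphate. Its non-oxidative branch interconverts sugar phosphates, supplying ribose 5-phosphate for nucleotides and returning carbon to glycolysis. In yeast several steps are encoded by duplicate genes: one copy (SOL3, GND1, TKL1, TAL1) carries most of the activity in growing cells, and the other (SOL4, GND2, TKL2 and NQM1, which lies outside the set of 10) is known as a minor form linked to stress or to growth without glucose. ZWF1 has no duplicate.

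With CG-1521, 3 of the 10 genes rose and 0 fell in limma, and 0 were lower at an unadjusted p under 0.05 either, where 12.9% of all genes tested rose and 16.8% fell. The 3 were ZWF1, SOL4 and GND2, all of the oxidative branch. All of the constitutive copies of duplicated steps missed the threshold, with log2 fold changes between -0.20 and 0.09. The median log2 fold change of the 10 genes was 0.16, against -0.04 over all genes. A gene was called at a limma adjusted p under 0.05, with adjustment over all 5449 genes, and all values are log2 values per probeset, so that levels of different genes are not compared with each other. In bulk cultures a change in RNA per cell and a change in the share of cells that express a gene cannot be told apart.

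**Figure D1:**
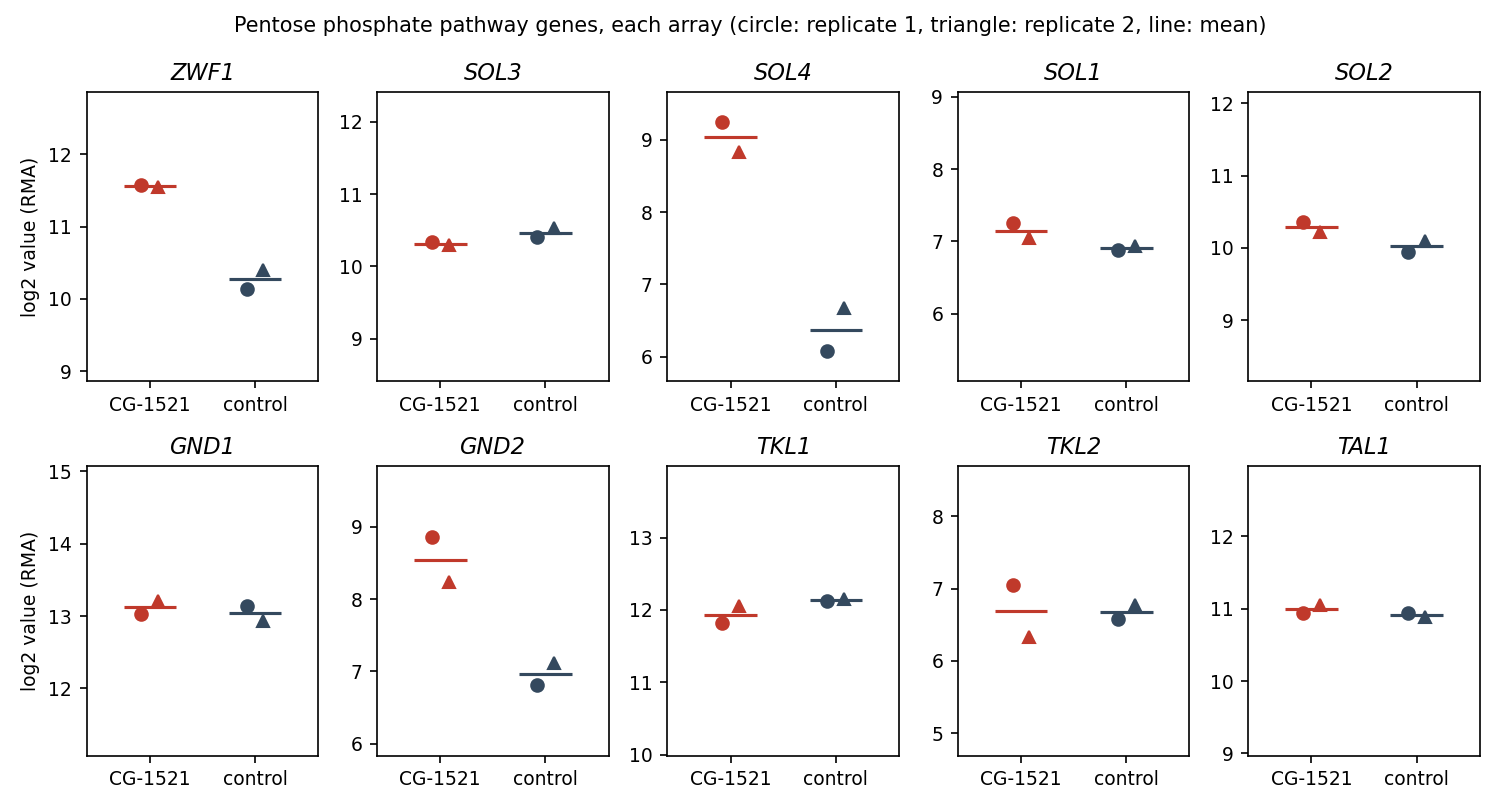
Log2 value (RMA) of each of the 10 genes on each array, CG-1521 left and control right, with circles for replicate 1, triangles for replicate 2 and lines for group means; every panel spans the same log2 range. Both CG-1521 values stand clear of both control values for ZWF1, SOL4 and GND2, while the CG-1521 values of TKL2 lie on either side of its control values.

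ZWF1 encodes glucose-6-phosphate dehydrogenase, the enzyme that commits glucose 6-phosphate to the oxidative branch. It read 11.58 and 11.55 with CG-1521, against 10.14 and 10.40 in control. Both CG-1521 values were above both control values, and the CG-1521 cultures differed from each other by 0.04. The group means were 11.57 ± 0.03 with CG-1521 and 10.27 ± 0.18 in control (SD, n = 2 each). ZWF1 thus rose 2.45-fold (log2 fold change 1.29 with an SE of 0.13, limma adjusted p = 0.00863). When 1 array is left out, 1 group keeps a single sample, which is assumed to vary like the other group. Leaving out control replicate 1 ended this call (log2 fold change 1.16, limma adjusted p = 0.0685), as did leaving out control replicate 2 (1.42, limma adjusted p = 0.0549).

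The lactonase step, which opens the ring of 6-phosphogluconolactone, is encoded by SOL3 and SOL4. SOL4, the stress form, read 9.24 and 8.83 with CG-1521, against 6.08 and 6.67 in control. Its groups lay far apart, and its means were 9.04 ± 0.29 with CG-1521 and 6.37 ± 0.42 in control (SD, n = 2 each). It rose 6.34-fold, with a 95% confidence interval of the fold between 4.0 and 10.1 (log2 fold change 2.67, SE 0.25, limma adjusted p = 0.00837). Among the 10 genes SOL4 was the only one whose call held whichever array was left out, with log2 fold changes between 2.37 and 2.96. With either control array left out most calls over all genes were lost, SOL4 passed narrowly and ZWF1 missed narrowly.

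SOL3, the constitutive lactonase, read 10.33 and 10.29 with CG-1521, against 10.40 and 10.53 in control. Both CG-1521 values were the lower ones, by a margin that did not pass (log2 fold change -0.15, SE 0.11, limma adjusted p = 0.314, 95% confidence interval -0.43 to 0.12). A position of both CG-1521 values below both control values was held by 40.9% of all genes, and one above them by 31.4%. SOL1 and SOL2 are related in sequence to the lactonases and have been linked to tRNA export rather than to this step. SOL1 read 7.25 and 7.05 with CG-1521, against 6.88 and 6.94 in control. SOL2 read 10.36 and 10.22 with CG-1521, against 9.95 and 10.10 in control. Neither group pair overlapped, and neither gene passed: their log2 fold changes were 0.24 (SE 0.12, limma adjusted p = 0.178) and 0.27 (SE 0.12, limma adjusted p = 0.145).

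GND1 and GND2 encode 6-phosphogluconate dehydrogenase, which yields the branch's other NADPH and ribulose 5-phosphate. GND2, the minor form, read 8.86 and 8.23 with CG-1521, against 6.81 and 7.11 in control. Its CG-1521 cultures differed by 0.63, replicate 1 being higher, yet both were above both controls. The means were 8.55 ± 0.45 with CG-1521 and 6.96 ± 0.21 in control (SD, n = 2 each), and GND2 rose 3.01-fold (log2 fold change 1.59, SE 0.25, limma adjusted p = 0.0168). Leaving out control replicate 1 ended the call (1.44, limma adjusted p = 0.0882), and so did leaving out control replicate 2 (1.74, limma adjusted p = 0.0677). GND1, the major form, read 13.03 and 13.21 with CG-1521, against 13.14 and 12.93 in control. These values overlapped, and the log2 fold change of 0.09 did not pass (SE 0.13, limma adjusted p = 0.629, 95% confidence interval -0.26 to 0.43).

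In the non-oxidative branch, transketolase moves carbon units of sugar phosphates and is encoded by TKL1 and TKL2. TKL2 read 7.05 and 6.33 with CG-1521, against 6.58 and 6.77 in control. The CG-1521 cultures stood on either side of the controls, 0.72 apart, so the mean change of 0.02 had the widest interval of the 10 genes (95% confidence interval -0.66 to 0.70, SE 0.26, limma adjusted p = 0.967). Its log2 fold change was -0.34 without CG-1521 replicate 1 and 0.37 without CG-1521 replicate 2, and neither passed. TKL1 read 11.82 and 12.05 with CG-1521, against 12.12 and 12.15 in control. Both CG-1521 values were below both control values, and the log2 fold change of -0.20 did not pass (SE 0.12, limma adjusted p = 0.255, 95% confidence interval -0.52 to 0.11).

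TAL1 encodes transaldolase, which works beside transketolase in the same branch. It read 10.94 and 11.05 with CG-1521, against 10.94 and 10.89 in control. Its values differed by less than 0.2 across all 4 arrays, and its log2 fold change of 0.08 did not pass (SE 0.10, limma adjusted p = 0.584, 95% confidence interval -0.19 to 0.35). NQM1, the duplicate of TAL1, read 9.19 and 8.67 with CG-1521, against 6.44 and 6.32 in control. It rose 5.85-fold (log2 fold change 2.55, SE 0.20, limma adjusted p = 0.00756), and its call held whichever array was left out.

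Whether the stress copies changed by more than their constitutive partners was tested on the ratio of both genes within each array, with the control mean set to 0. A constant offset of each probeset on the log2 scale cancels in such a ratio. A response that differs between bright and dim probesets does not cancel, and its part was not tested. The SOL4 to SOL3 ratio stood at 3.0 and 2.63 with CG-1521, against -0.23 and 0.23 in control, a difference of 2.82 on the log2 scale or 7.05-fold (SE 0.20, limma adjusted p = 0.00113). The NQM1 to TAL1 ratio stood at 2.79 and 2.15 with CG-1521, against 0.03 and -0.03 in control, a difference of 2.47 (SE 0.24, limma adjusted p = 0.0102). Both stress copies thus changed by more than their partners. Relative to SOL3, 20.9% of all genes were higher with CG-1521, and relative to TAL1, 7.51% were.

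The GND2 to GND1 ratio stood at 1.90 and 1.10 with CG-1521, against -0.26 and 0.26 in control, a difference of 1.5 on the log2 scale. Both CG-1521 ratios were above both control ratios. The fit of all genes relative to GND1 gave an adjusted p of 1.46e-06 in limma, with 7.67% of all genes higher, but there the noise of GND1 itself entered every gene and the prior degrees of freedom became infinite. With the prior spread taken from the plain gene table, an alternative chosen after seeing the data, the same difference had an SE of 0.34, a 95% confidence interval of 0.61 to 2.39 and a limma-based adjusted p of 0.0618, so that the call did not hold. Under that alternative 3.21% of all genes were higher relative to GND1. SOL4 over SOL3 (adjusted p = 0.0174) and NQM1 over TAL1 (adjusted p = 0.0223) still passed with it as limma-based tests, where 10.2% and 4.46% of all genes were higher relative to SOL3 and TAL1. GND2 over GND1 also lost its call when control replicate 1 was left out (1.25, limma adjusted p = 0.0906) and when control replicate 2 was (1.76, limma adjusted p = 0.0529). NQM1 over TAL1 lost its call when control replicate 1 was left out (limma adjusted p = 0.0848) and when control replicate 2 was (limma adjusted p = 0.0912).

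The TKL2 to TKL1 ratio stood at 0.69 and -0.25 with CG-1521, against -0.08 and 0.08 in control. The CG-1521 ratios straddled the control ratios, and the difference of 0.22 did not pass (SE 0.31, limma adjusted p = 0.631), where 14.3% of all genes were higher relative to TKL1. The difference was 0.69 without CG-1521 replicate 2 and turned to -0.25 without CG-1521 replicate 1. Each of these fits takes its spread from the 2 control arrays alone, so no call is drawn from them. The SOL1 to SOL2 ratio stood at 0.00 and -0.06 with CG-1521, against 0.04 and -0.04 in control, with a difference of -0.03 (SE 0.14, limma adjusted p = 0.892), where 35.2% of all genes were lower relative to SOL2. These related genes shifted by nearly the same small amount on every array. An exact permutation test of any single ratio has only 6 arrangements of the arrays, of which at least 2 count as extreme in a two-sided test, so it cannot pass here.

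**Figure D2:**
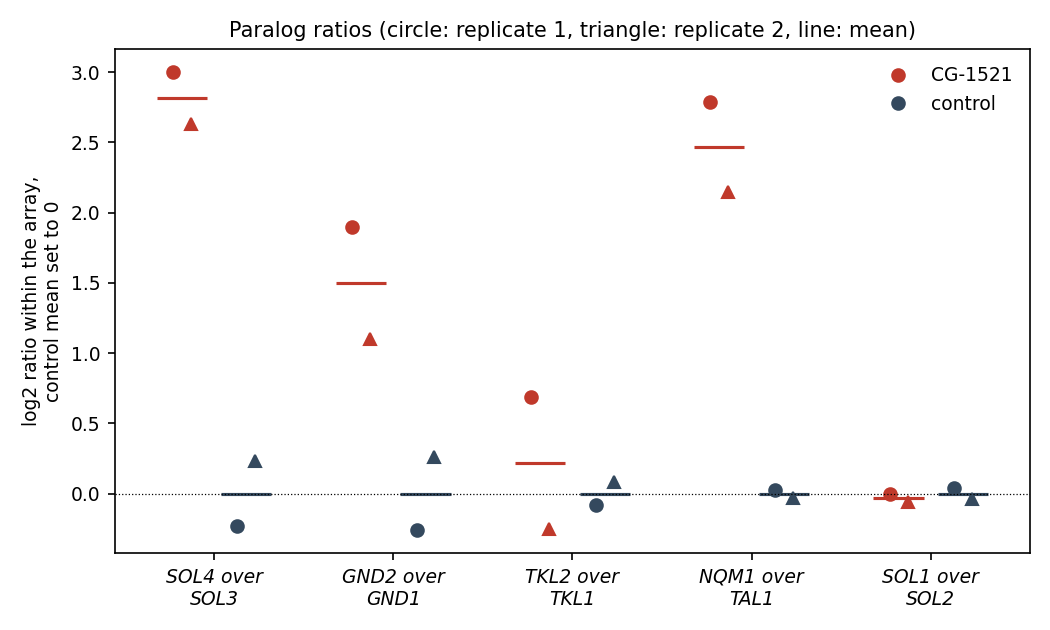
Log2 ratio of 5 pairs of duplicate genes within each array, with the control mean of each pair set to 0, for CG-1521 (left of each pair) and control (right), circles for replicate 1, triangles for replicate 2 and lines for means. SOL4 over SOL3 and NQM1 over TAL1 stand more than 2 log2 units above control on both CG-1521 arrays, GND2 over GND1 stands 1.90 and 1.10 above, TKL2 over TKL1 stands at 0.69 and -0.25, and SOL1 over SOL2 lies near 0.

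Of 11 ratios compared, 6 were chosen after the values were seen, so their p-values are no independent support. They were those of SOL4 and GND2 over TKL2, of ZWF1 over SOL3 and GND1 and of RKI1 and RPE1 over TAL1. The other 5 ratios were planned, but their genes were chosen with earlier results of these data known. The p-values of these 5 are thus not independent of the data either. The SOL4 to TKL2 ratio stood at 2.50 and 2.80 with CG-1521, against -0.20 and 0.20 in control, a difference of 2.65 on the log2 scale. The GND2 to TKL2 ratio stood at 1.53 and 1.61 with CG-1521, against -0.05 and 0.05 in control, a difference of 1.57. In each gene alone CG-1521 replicate 1 was above replicate 2, by 0.41 in SOL4, 0.63 in GND2 and 0.72 in TKL2. The fit relative to TKL2 had infinite prior degrees of freedom, as that relative to GND1 had, with limma adjusted p = 1.11e-08 for SOL4 and 0.00331 for GND2. With the prior spread of the gene table the limma-based adjusted p was 0.0280 for SOL4 and 0.0315 for GND2. Relative to TKL2, 3.21% of all genes were higher, and 1.28% with that prior. The GND2 ratio stood at 1.52 without control replicate 1 and 1.63 without control replicate 2, and lost its call in both fits. There the spread came from the 2 CG-1521 arrays, and the gap of 0.72 in TKL2 entered every gene.

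Within the oxidative branch, ZWF1 was set against the constitutive enzymes that follow it, also after its values were seen. The ZWF1 to SOL3 ratio stood at 1.44 and 1.45 with CG-1521, against -0.06 and 0.06 in control, a difference of 1.45 (SE 0.13, limma adjusted p = 0.00156, and 0.0186 with the prior spread of the gene table). The ZWF1 to GND1 ratio stood at 1.31 and 1.10 with CG-1521, against -0.24 and 0.24 in control, a difference of 1.21 (SE 0.27, limma adjusted p = 0.000183, and 0.0423 with that prior). This last call was lost when control replicate 1 was left out (0.97, limma adjusted p = 0.0792).

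The other genes of the non-oxidative branch and of pentose use moved in both directions. Among these 9 genes, whose median log2 fold change was 0.41, 6 rose, 2 fell and 1 missed the threshold, where 12.9% of all genes rose and 16.8% fell. RKI1, the isomerase that makes ribose 5-phosphate, read 8.90 and 9.31 with CG-1521, against 10.23 and 10.22 in control, and fell by 1.12 (SE 0.16, limma adjusted p = 0.0150). RPE1, the epimerase that makes xylulose 5-phosphate, read 10.57 and 10.51 with CG-1521, against 11.28 and 11.15 in control, and fell by 0.68 (SE 0.10, limma adjusted p = 0.0166). These enzymes use the product of the GND reaction, and neither has a duplicate. In ratios chosen after the values were seen, RKI1 relative to TAL1 changed by -1.20 and RPE1 by -0.75, and both differences passed (limma adjusted p = 0.0127 and 0.0194), where 17.9% of all genes were lower. With the prior spread of the gene table they passed too (limma-based adjusted p = 0.0259 and 0.0398), where 10.1% of all genes were lower. Both calls were lost when either control array was left out, with limma adjusted p between 0.0982 and 0.140. SHB17, the sedoheptulose bisphosphatase that links glycolysis to ribose synthesis, had a log2 fold change of -0.35 and did not pass (limma adjusted p = 0.0664).

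Beside NQM1, those that rose were XKS1, xylulokinase (1.03, SE 0.14, limma adjusted p = 0.0130), the xylitol dehydrogenase XYL2 (0.62, limma adjusted p = 0.0312), the aldose reductase GRE3 (0.59, limma adjusted p = 0.0202), the ribokinase RBK1 (0.41, limma adjusted p = 0.0383) and YDR248C, a likely gluconokinase (0.41, limma adjusted p = 0.0424). Each of these feeds a sugar or sugar acid toward the pathway or belongs to a route that does. XYL2, RBK1 and YDR248C lost their calls with all features fitted together. XYL2 also lost its call with an intensity trend and with yeast genes normalized alone, and a filter on dim probesets removed it. When either control array was left out, most calls over all genes were lost, and NQM1 alone of the 9 kept its call. With the replicate number as a block, 2 rose and 2 fell, where 369 of all 5449 genes rose and 450 fell. Without CG-1521 replicate 1, XYL2, RBK1 and YDR248C stood at 0.66, 0.38 and 0.38.

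PRPP synthetase joins ribose 5-phosphate to pyrophosphate from ATP and opens the synthesis of nucleotides, histidine and tryptophan. All 5 of its genes fell, with a median log2 fold change of -0.77, where 16.8% of all genes fell. PRS3 read 10.63 and 10.69 with CG-1521, against 11.55 and 11.39 in control, and fell by 0.81 (SE 0.11, limma adjusted p = 0.0134). PRS5, PRS1, PRS2 and PRS4 fell by 0.82, 0.77, 0.69 and 0.48. In each of the 5, both CG-1521 values were below both control values, a position held by 40.9% of all genes. With the replicate number as a block 3 of the 5 passed, where 450 of all 5449 genes fell, against 917 without the block. Their calls were lost with either control array left out, as most calls over all genes were, and each log2 fold change stayed below 0.

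**Figure D3:**
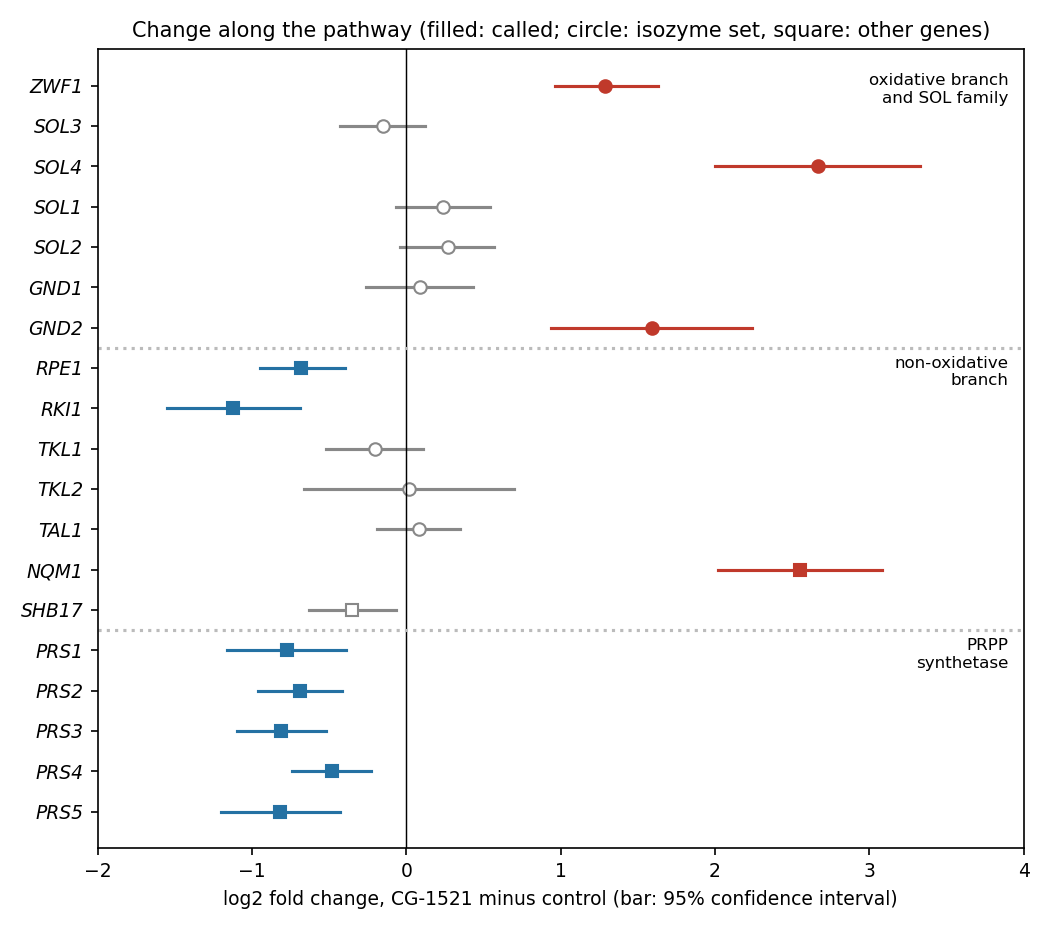
Log2 fold change (CG-1521 minus control) with its 95% confidence interval for the 10 isozyme genes (circles) and other genes of the pathway (squares), ordered from the oxidative branch down to PRPP synthetase; filled symbols passed at an adjusted p under 0.05. The called genes of the oxidative branch (ZWF1, SOL4, GND2) lie to the right, as does NQM1 of the non-oxidative branch. RPE1, RKI1 and the 5 PRS genes lie to the left.

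NADPH can also come from outside the pathway. Of 8 such genes, NAD kinases included, 1 rose, 2 fell and 5 missed the threshold, and their median log2 fold change was 0.29. These shares lie near those of all genes, 12.9% and 16.8%. IDP1, the mitochondrial NADP-dependent isocitrate dehydrogenase, rose by 0.54 (SE 0.10, limma adjusted p = 0.0217). MAE1, the mitochondrial malic enzyme, read 9.08 and 8.89 with CG-1521, against 10.14 and 10.30 in control, and fell by 1.23 (SE 0.13, limma adjusted p = 0.00916). POS5, the mitochondrial NADH kinase, fell by 0.68 (SE 0.14). The cytosolic ALD6, the acetaldehyde dehydrogenase that is the other large source of NADPH on glucose, had a log2 fold change of 0.25 and did not pass (limma adjusted p = 0.270). IDP2 and IDP3, the cytosolic and peroxisomal isocitrate dehydrogenases, did not pass either, and their CG-1521 replicate 1 stood above replicate 2 by 1.52 and 1.08. IDP2 and IDP3 stood at 1.74 and 1.18 without CG-1521 replicate 2, and at 0.22 and 0.10 without CG-1521 replicate 1. POS5 stood at -0.55 without CG-1521 replicate 1. With the replicate number as a block 0 of the 8 rose and 1 fell, where 369 of all 5449 genes rose and 450 fell. The calls of these genes were lost when either control array was left out, as most calls over all genes were.

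Of 11 reductases that use NADPH, 4 rose, 0 fell (also 0 in limma at an unadjusted p under 0.05) and 7 missed the threshold, and their median log2 fold change was 0.33, beside 12.9% of all genes that rose and 16.8% that fell. GRE2, a reductase of methylglyoxal and other carbonyls, read 12.28 and 12.40 with CG-1521, against 10.45 and 9.81 in control, and rose 4.64-fold (log2 fold change 2.21, SE 0.23, limma adjusted p = 0.00935). OYE3, an old yellow enzyme, GCY1, an aldo-keto reductase, and ARI1, an aldehyde reductase, rose by 0.98, 0.97 and 0.47. Glutathione reductase GLR1 (0.29, limma adjusted p = 0.108) and the thioredoxin reductases TRR1 (-0.02) and TRR2 (0.33) did not pass. When either control array was left out, most calls over all genes were lost, and GRE2 alone of the 11 kept its call.

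Among 10 genes that supply or use glucose 6-phosphate, the pathway's substrate, 5 rose, 1 fell and 4 missed the threshold, and the median log2 fold change was 0.59, beside 12.9% of all genes that rose and 16.8% that fell. Those that rose were the glucose kinases GLK1, EMI2 and HXK1, the phosphoglucomutase PGM2 and the trehalose phosphate synthase TPS1. EMI2 read 9.82 and 9.99 with CG-1521, against 8.24 and 8.18 in control, and rose by 1.70 on the log2 scale (SE 0.11, limma adjusted p = 0.00676). HXK1 read 11.78 and 11.58 with CG-1521, against 9.33 and 10.11 in control, and rose by 1.96 (SE 0.28, limma adjusted p = 0.0146). The constitutive HXK2 (-0.07) and the isomerase PGI1 (-0.07), which leads into glycolysis, did not pass, and the minor phosphoglucomutase PGM1 fell by 0.60 (SE 0.10). When either control array was left out, most calls over all genes were lost, and PGM1 and TPS1 lost theirs. HXK1 lost its call without control replicate 1. PFK1 (-0.45) and PFK2 (-0.59) did not pass, but were called lower with an intensity trend (limma adjusted p = 0.043 and 0.0432). Without CG-1521 replicate 2 they stood at -0.62 and -0.88. With the replicate number as a block 0 fell, where 450 of all 5449 genes fell.

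Of 6 regulators of these genes, 1 rose, 1 fell and 4 missed the threshold, shares near the 12.9% and 16.8% of all genes. YAP1, an activator of oxidant defence genes, rose by 0.92 (SE 0.12, limma adjusted p = 0.0127), and GCR2, a coactivator of glycolytic genes, fell by 0.74 (SE 0.11, limma adjusted p = 0.0149). STB5, which activates pentose phosphate genes under oxidant stress, read 7.23 and 7.16 with CG-1521, against 7.47 and 7.44 in control, and did not pass (log2 fold change -0.26, SE 0.10, limma adjusted p = 0.111). The general stress activators MSN2 (0.41, limma adjusted p = 0.0828) and MSN4 (0.51, limma adjusted p = 0.0663) did not pass. The calls of YAP1 and GCR2 were lost when either control array was left out, as most calls over all genes were. MSN4 stood at 0.68 without CG-1521 replicate 1. GCR1, at 0.33 with all arrays and not called, stood at 0.62 without CG-1521 replicate 2.

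**Figure D4:**
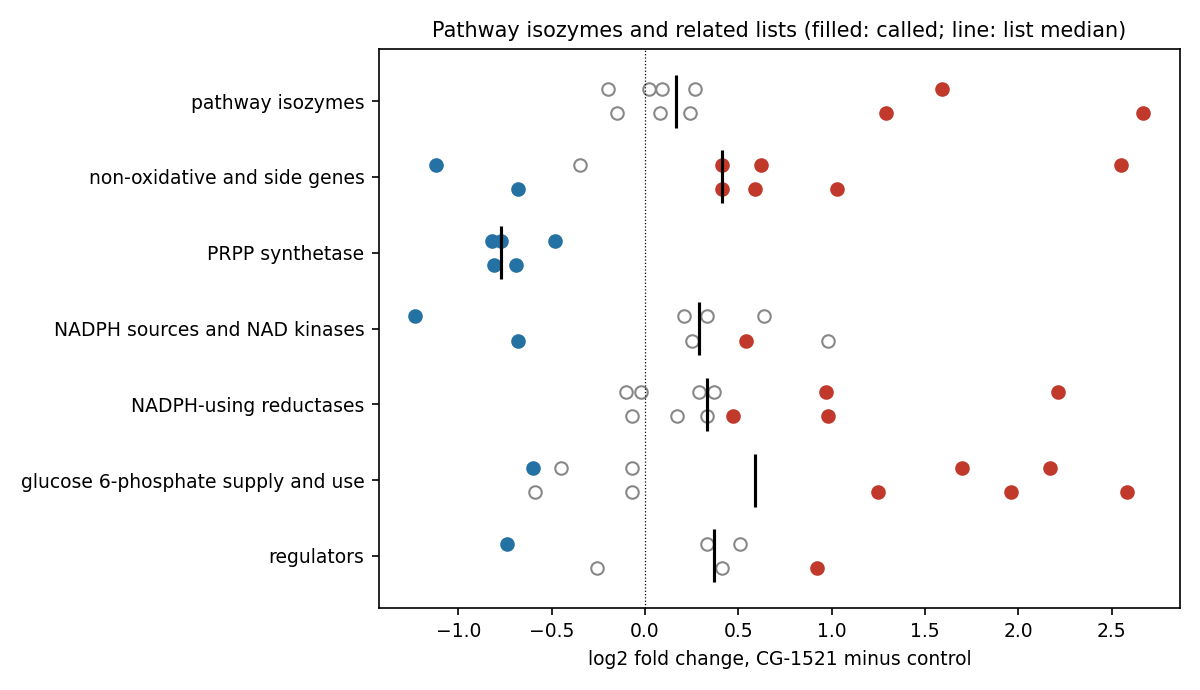
Log2 fold change (CG-1521 minus control) of every gene of the isozyme set and of 6 related lists, with filled points for genes that passed at an adjusted p under 0.05 and a line at each list's median. The PRPP synthetase genes all lie left of 0, and the other lists hold points on both sides.

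The genes nearest in pattern to 4 of the isozymes were sought by the root mean square difference, over the 4 arrays, of values centred on each gene's own control mean. Nearest to SOL4 were RGI1, a gene of respiratory growth (0.100), GLK1 (0.139) and XBP1, a stress-induced repressor (0.164). Nearest to GND2 were MUM3, a sporulation gene (0.031), GPD1, the glycerol 3-phosphate dehydrogenase of osmotic stress (0.035), and YNL277W-A (0.071). GPD1 stood at 1.86 and 1.30 above its control mean with CG-1521, against 1.90 and 1.27 for GND2. Nearest to TKL2 were YAT2, a carnitine acetyltransferase, RNH201, a subunit of RNase H2, and SPO20, a sporulation gene, with differences of 0.029 to 0.048. Nearest to GND1 were PAC2, PMT1 and RPN14, at 0.021 to 0.026. The distances describe these 4 arrays alone.

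The induced copies SOL4 and GND2 share a chromosome, VII, with 7 protein-coding genes between them in the R64 annotation. Of the 6 of these with a probeset, 1 rose and 1 fell, the proteasome gene PUP2 (0.45) and the ribosome assembly gene NOP19 (-1.07), and the median log2 fold change was 0.17. These neighbours were looked up after the values were seen. Their constitutive partners SOL3 and GND1 share chromosome VIII, with 20 genes between them, of which 16 had a probeset, 2 rose and 5 fell (median -0.09). Of all genes 12.9% rose and 16.8% fell.

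Several facts of the arrays bear on these values. Hybridization spikes, bacterial and phage sequences added to every sample, had medians of 12.23 and 11.99 with CG-1521, against 11.41 and 11.83 in control, and so moved with the treatment. Poly-A spikes, with medians of 8.68 and 7.94 with CG-1521, against 8.13 and 8.38 in control, overlapped between the groups. Of 7 control transcripts with probesets at both ends, the 3′ over 5′ signal was higher on both CG-1521 arrays in 3 and lower in 1. The part of the spikes and of these end ratios in the results was not tested. The array also carries probesets for fission yeast, and its sol1, tal1 and zwf1 probesets stayed between 1.53 and 2.03 on all arrays, below the background of 2.42 to 2.45. Signal of the deleted URA3 and MET17 lay below background on all arrays, between 1.19 and 1.99, while LEU2, also deleted, read 2.77 and 3.09 with CG-1521, both above background, against 2.08 and 2.42 in control, both below it, and was called higher (0.68, limma adjusted p = 0.0488). HIS3 read 10.21 to 10.91, which checks nothing where a probe lies outside the deleted part, and was called lower with CG-1521 (-0.60, limma adjusted p = 0.0217). The 5 a-cell genes read between 10.8 and 12.4, BY4741 being of mating type a. Of these 2 were called lower, STE2 (-0.79, limma adjusted p = 0.0285) and AGA2 (-0.80, limma adjusted p = 0.0223), beside 16.8% of all genes. Of the alpha-cell genes, STE3 lay between 4.63 and 5.17, MF(ALPHA)1 between 2.73 and 3.79, SAG1 between 7.62 and 7.86 and MF(ALPHA)2 between 9.20 and 9.59. MF(ALPHA)1 was called lower (-0.75, limma adjusted p = 0.0377), and the other 3 were not called.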

How the data were processed

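Each array came as a deposited column of log2 values, 1 value for each probeset, and per the submitters' processing notes the authors used Affymetrix Expression Console and RMA. Their versions are not given in the sources used here. RMA equalises the arrays' distributions, so a shift of all transcripts in 1 direction would not show. Groups and replicate numbers came from the sample titles. Of 10928 features, 5498 probesets matched genes of the R64 annotation, giving 5449 genes. For genes with several probesets the one with the highest mean was kept. Background was the 95th percentile of 1746 probesets of the other species on the array. The comparison was run in R 4.3.3 with limma 3.58.1 (eBayes without trend, no block), with 2 residual and 2.69 prior degrees of freedom and a median SE of 0.12. Two-sided p-values were adjusted by Benjamini-Hochberg over all genes. Ratios were fitted in the same way on all genes relative to the second-named gene of each (SOL3, GND1, TKL1, TAL1, SOL2 or TKL2). The number of arrays limits the precision. The procedure was tested on simulated data. That simulation did not examine the calls of ratios.

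The members and lists were chosen with earlier results of these data known. The text names every member, the called genes of 6 related lists, the 3 genes nearest in pattern to SOL4, GND2, TKL2 and GND1, and the strain's marker genes. Alternatives left out each array, added the replicate number as a block or an intensity trend, normalized yeast genes alone, fitted all features, filtered dim probesets or averaged probesets. Replicate 1 minus replicate 2 correlated at -0.263 between the groups across genes, and the labels do not say that a number marks a shared batch. Promoter and protein sequences were not used here.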

Additional observations from a re-analysis of the deposited data

How the results depend on the processing

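Of 31 called isozyme and list genes, 29 to 31 kept the call with an intensity trend, yeast genes normalized alone, dim probesets filtered or probesets averaged, 23 with all features fitted together, 26 without CG-1521 replicate 1, 30 without CG-1521 replicate 2, 6 without control replicate 1 and 7 without control replicate 2, and 0 of the 31 changed sign in these settings. No shared batch is stated for the replicate numbers. With the replicate number as a block 21 of the 31 kept the call and 3 of the 10 isozyme genes rose, and over all genes 369 rose and 450 fell, against 703 and 917 without it. In this fit 2 of the non-oxidative and side genes rose, 3 PRPP synthetase genes fell, 0 NADPH sources rose and 1 fell, and 0 glucose 6-phosphate genes fell. With the block numbers crossed, added after seeing the data, 842 rose and 978 fell and 2 regulators rose. With all features fitted together 367 features rose and 462 fell, 3 non-oxidative and side genes rose, 3 PRPP synthetase genes fell, and 0 NADPH sources rose and 1 fell. With the intensity trend 3 glucose 6-phosphate genes fell. With yeast genes normalized alone TKL2 stood at -0.01 and PGI1 at 0.01, neither called. With the prior spread of the gene table, added after seeing the data, GND2 over GND1 kept its difference of 1.5 and lost the call (adjusted p = 0.0618). Beyond what is stated of fewer arrays and more features, the cause was not tested.

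Leaving out each array in turn gave 50 to 1001 genes higher and 16 to 1133 lower. Of the isozyme genes 1 to 3 rose. Of the non-oxidative and side genes 1 to 5 rose and 0 to 2 fell, of the PRPP synthetase genes 0 to 5 fell, of the NADPH sources 0 to 3 rose and 0 to 2 fell, and of the reductases 1 to 5 rose. Of the glucose 6-phosphate genes 3 to 5 rose and 0 to 3 fell, and of the regulators 0 to 2 rose and 0 to 1 fell. Ratios ranged over 2.59 to 3.05 for SOL4 over SOL3, 1.10 to 1.90 for GND2 over GND1, -0.25 to 0.69 for TKL2 over TKL1, -0.07 to 0.02 for SOL1 over SOL2 and 2.15 to 2.79 for NQM1 over TAL1. They ranged over 1.52 to 1.63 for GND2 over TKL2, 0.97 to 1.44 for ZWF1 over GND1, -1.34 to -1.05 for RKI1 over TAL1 and -0.84 to -0.67 for RPE1 over TAL1. Single genes that changed sign, none of them called, were GND1 (-0.02 to 0.20), TKL2 (-0.34 to 0.37), TRR1 (-0.08 to 0.04), ADH6 (-0.36 to 0.21), ADH7 (-0.72 to 0.52) and HXK2 (-0.18 to 0.04).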
